A study of Mus musculus with 6 samples.

Results

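The genes of Wnt ligands, their receptors and their secreted or membrane antagonists were compared between cultures of aortic cells from female and male mice. They were the protein-coding genes whose symbols carry the family names Wnt, Fzd, Dkk, Sfrp, Rspo, Axin, Lrp5, Lrp6, Lgr, Wif1, Frzb, Ror, Znrf3 or Rnf43, which gave 54 of the 54532 genes in the table. The female group held 3 libraries and the male group 3, all labelled wild type, untreated and MAEC, for mouse aortic endothelial cells. Both sexes were grown in F-12 medium supplemented with heparin, serum and growth factors for endothelium. Strain and age are not in the labels. Nor do they say if replicates were different animals or dishes, and the p-values below then cover only how much these libraries varied, which may be technical.

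Wnt proteins are secreted lipid-modified ligands that bind Frizzled receptors. Together with the co-receptors Lrp5 and Lrp6 they stabilise beta-catenin, which then acts with TCF and LEF factors in the nucleus, while Ror1 and Ror2 serve beta-catenin independent signalling. R-spondins, bound by Lgr receptors, spare Frizzleds from the ubiquitin ligases Znrf3 and Rnf43. Sfrp proteins, Frzb and Wif1 bind Wnts, whereas Dickkopf proteins other than the divergent Dkk3 bind Lrp5 and Lrp6. In blood vessels the pathway is known for its part in vessel growth and barrier formation.

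Library totals ran from 17410996 to 22993574 counts, so that a count of 0 allows 0.130 to 0.172 CPM (counts scaled to the library total) in a library, taking 3 counts as the limit. Such limits cover counting error only. Male replicate 3 was unlike replicates 1 and 2 of its sex (its log2 levels correlated with theirs at 0.973 or less, against 0.983 to 0.987 between female libraries), and it held the lowest male level for 19 of the 32 genes tested. Of 19 endothelial marker genes, 13 were below 1 CPM throughout, and no library had a count of Robo4, Cldn5, Tie1 or Cdh5. The summed level of that list was 262 to 276 CPM in female and 433.5 to 485 CPM in male libraries, with Eng the most abundant. Of its 7 genes tested, 3 were called lower in female and 0 higher, against 8.62 and 9.68% of all tested genes. Among the 3 was Plvap, at a mean of 3.52 CPM in female and 112.5 in male libraries, while Pecam1 and Flt1 were not called. The 12 fibroblast markers summed to 7177 to 7643 in female and 4639 to 4937 in male libraries. Of the 11 tested, 6 were called higher in female and 2 lower. The lower ones were Thy1 and Tcf21, which had 0 counts in female and 375 in male libraries. Tcf21 thus passed the filter through the male libraries alone. Pericyte markers summed to 1700 to 1739 and 1637 to 2041, and smooth muscle markers to 119 to 121 and 142 to 176 CPM, in female and male libraries respectively. Of 5 pericyte markers tested, Rgs5 was called higher in female (means 1312 and 970 CPM in female and male) and Pdgfrb lower (352 and 831). Smtn held most of the smooth muscle sum (112 and 129.5 CPM). Of 4 smooth muscle markers tested, only Acta2 was called, lower in female (3.23 and 20.3 CPM). Macrophage markers summed to 29.4 to 38.4 in female and 12.6 to 19.0 in male, mesothelial markers to 7.48 to 11.2 and 2.08 to 3.98, adipocyte markers to 31.9 to 38.3 and 71.6 to 84.5, and neural and glial markers to 13.5 to 16.4 and 24.1 to 38.7. Ptprc, Lrrn4 and Gfap, of the macrophage, mesothelial and neural lists, had 0 counts throughout. Krt18 held most of the female mesothelial sum, at a mean of 7.50 CPM in female and 0.504 in male libraries. Of the same list, Msln, Upk3b and Wt1 had 0 counts in female and 17, 18 and 4 in male libraries. The part of these marker differences in the results below was not tested, and in bulk RNA fewer cells of a type cannot be told apart from less RNA per cell.

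Of the 54 genes, which were chosen with earlier results of these data known, 32 passed the filter on low counts. Among those, edgeR called 8 higher and 12 lower in female, where 9.68% of the 14932 genes tested were called higher and 8.62% lower (18.3% in either direction). In 23 of the 32 the female and male values were fully separate (9 higher, 14 lower), against 35.9% of all tested genes. Called differences reached 2-fold or more in 15 genes (10.3% of all tested genes) and 4-fold or more in 9 (5.06%). The median log2 fold change of female over male was -0.27, and -0.01 over all tested genes. Rspo2, Wnt10b and Wnt16 passed the filter through the male libraries alone and so had to differ. All of them are counted in the 12 lower, the 14 separate and lower, the 15 and the 9. They also enter the median, so these values are raised in size by the filter. The 26 genes above the filter's level in all 6 libraries included 17 of the calls, 8 higher and 9 lower. Of the 32, 7 were called lower without female replicate 2 or male replicate 2, and 15 without male replicate 3. Over all genes tested in those fits, 903 of 15482, 923 of 15393 and 2543 of 15462 were called lower. In either direction 12.1, 12.6 and 32.7% were called.

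**Figure D1:**
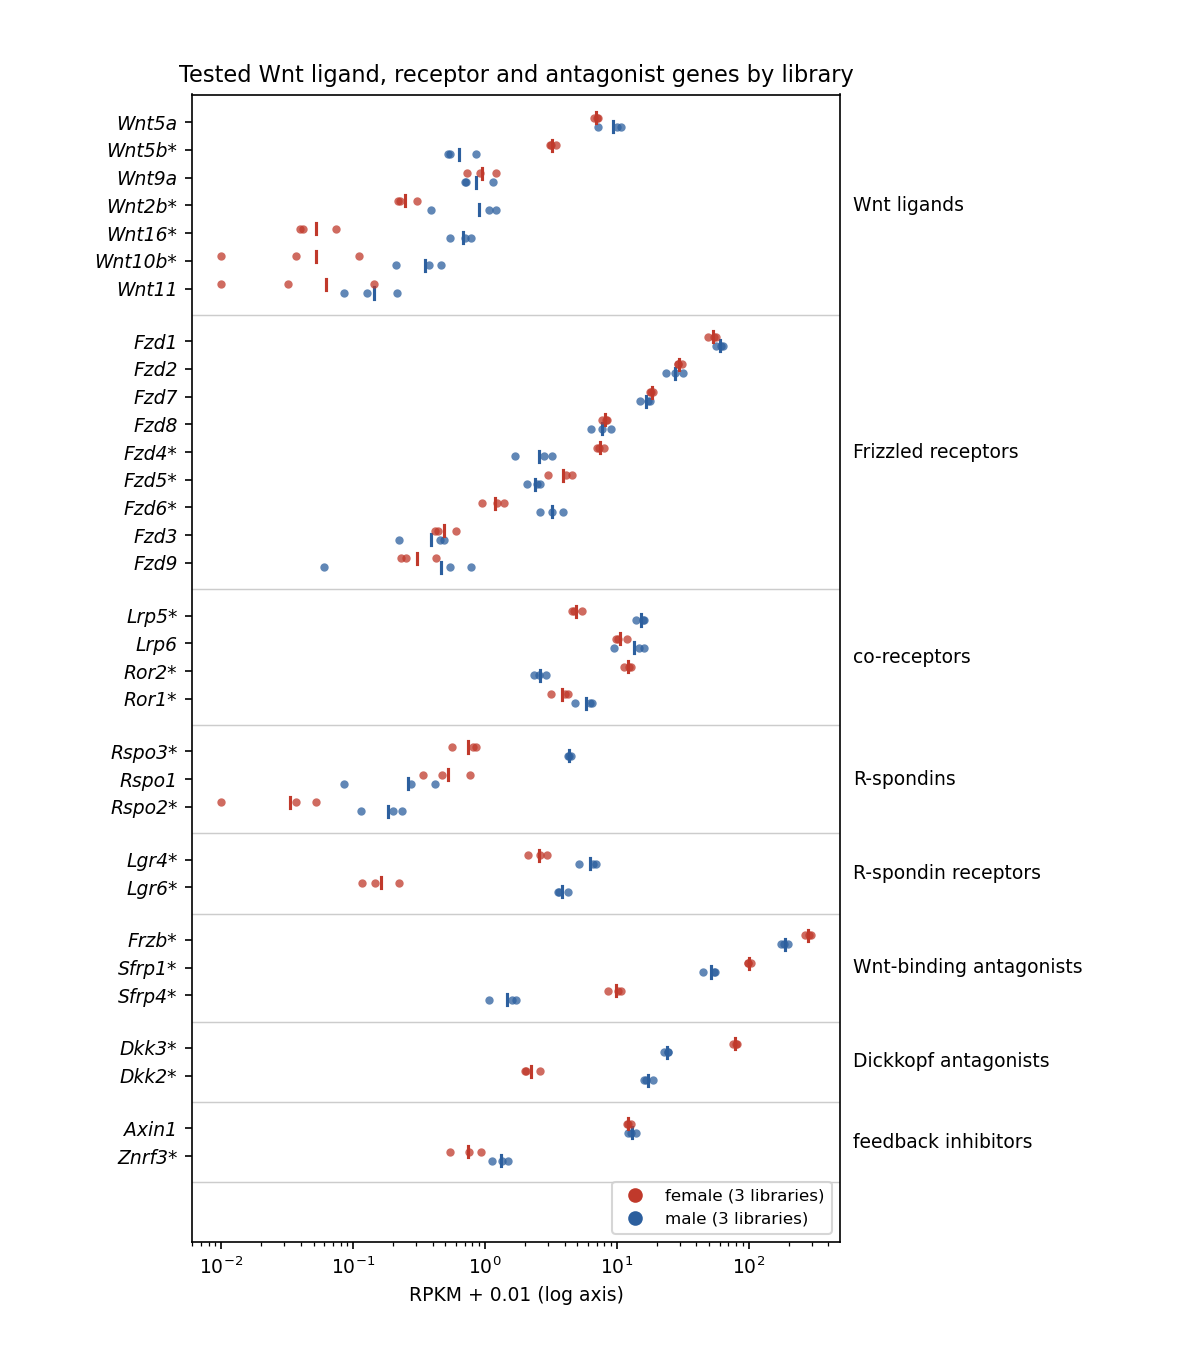
Levels of the 32 tested Wnt ligand, receptor and antagonist genes as RPKM + 0.01 on a log axis. Points are single libraries (female red, male blue), short bars are means of 3 libraries, and an asterisk marks a gene called by edgeR at an adjusted p under 0.05. Frzb lies highest in both sexes, and Lgr6 and Dkk2 show the blue points far to the right of the red ones.

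Promoter sequence was matched for 35 of the 54 genes in RefSeq (GRCm38.p6), 12 of them among the 20 called. Each window spans 250 bases before to 50 after a transcription start, written 5′ to 3′ on the gene's strand. The windows shown are those of the co-receptor gene Ror2 and the ligand gene Wnt5b, higher in female by more than 4-fold, and of the receptor gene Lgr6 and the antagonist gene Dkk2, lower by more than 4-fold. Another window of Wnt5b (chr6:119467162-119467461), which held no match to the motifs searched, is not printed. Nor are those of Wnt16 and Wnt10b, also lower by more than 4-fold, which held no match either. Capitals mark matches on either strand to the TCF/LEF motifs CTTTGAT and CTTTGAA, the TATA motif TATAAA, the GC box GGGCGG and the AP-1 motif TGACTCA, and overlapping matches are marked as 1 run.
Lgr6, chr1:135105227-135105526, minus strand: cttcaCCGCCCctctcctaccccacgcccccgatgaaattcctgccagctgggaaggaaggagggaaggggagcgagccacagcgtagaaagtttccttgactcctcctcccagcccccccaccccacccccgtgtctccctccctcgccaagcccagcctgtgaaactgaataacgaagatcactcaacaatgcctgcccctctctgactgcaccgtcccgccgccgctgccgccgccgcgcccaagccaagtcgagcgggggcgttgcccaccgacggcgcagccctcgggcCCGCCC
Dkk2, chr3:132085042-132085341, plus strand: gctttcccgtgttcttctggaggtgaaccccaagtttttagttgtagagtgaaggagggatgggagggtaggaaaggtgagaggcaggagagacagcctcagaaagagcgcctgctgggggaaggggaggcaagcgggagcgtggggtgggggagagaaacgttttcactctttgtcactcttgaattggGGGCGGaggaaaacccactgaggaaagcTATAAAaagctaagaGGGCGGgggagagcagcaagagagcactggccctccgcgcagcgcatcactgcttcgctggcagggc
Ror2, chr13:53286075-53286374, minus strand: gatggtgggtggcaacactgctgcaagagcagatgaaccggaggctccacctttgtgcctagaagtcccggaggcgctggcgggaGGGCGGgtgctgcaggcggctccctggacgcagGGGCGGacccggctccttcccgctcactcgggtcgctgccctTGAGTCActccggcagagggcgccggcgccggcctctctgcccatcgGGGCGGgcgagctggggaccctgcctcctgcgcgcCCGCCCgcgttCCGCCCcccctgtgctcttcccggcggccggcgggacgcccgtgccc
Wnt5b, upstream start, chr6:119544298-119544597, minus strand: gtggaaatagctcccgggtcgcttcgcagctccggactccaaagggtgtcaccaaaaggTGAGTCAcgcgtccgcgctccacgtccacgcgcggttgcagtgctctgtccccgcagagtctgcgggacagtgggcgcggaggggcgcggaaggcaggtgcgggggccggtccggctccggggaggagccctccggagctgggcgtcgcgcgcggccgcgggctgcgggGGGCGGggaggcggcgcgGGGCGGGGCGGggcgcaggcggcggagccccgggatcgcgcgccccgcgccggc
Wnt5b, downstream start, chr6:119449337-119449636, minus strand: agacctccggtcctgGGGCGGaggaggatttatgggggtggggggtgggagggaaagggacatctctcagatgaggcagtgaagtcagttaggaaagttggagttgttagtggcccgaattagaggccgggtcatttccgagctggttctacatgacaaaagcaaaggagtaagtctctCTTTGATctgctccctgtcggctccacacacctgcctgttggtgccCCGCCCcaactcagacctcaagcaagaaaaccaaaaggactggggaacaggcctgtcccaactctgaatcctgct

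TGACTCA was found in 2 of the 39 windows of the 54 genes, those of Ror2 and Wnt5b printed above, and in 5.2% of all 32851 RefSeq windows. CTTTGAT occurred in windows of Wnt5b and Wnt11 (3.73% of all windows) and CTTTGAA in that of Dkk1 (5.14%), so that 1 of the 14 windows of called genes held either TCF/LEF form. TATAAA lay 32 bases before the start of Dkk2 and in 5 windows of the 54 genes in all (13.6% of all windows). GGGCGG was present in 28 of the 39 windows, against 35.7% of all. The window of Ror2 held 32 CG dinucleotides, those of Lgr6 and Dkk2 24 and 11, and the median of all windows was 7. Wnt5b had 47 at its upstream start, 7 at the downstream start and 4 in the window not printed. These matches describe the letters of the windows and are no measure of binding.

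Among the 19 Wnt ligand genes, Wnt5a and Wnt5b, the ligands best known for beta-catenin independent signalling, made up most of the message, and 7 passed the filter. Wnt5b (chromosome 6, 119432531 to 119544347) stood at 3.08, 3.41 and 3.15 RPKM in female replicates 1 to 3 and at 0.510, 0.532 and 0.836 RPKM in male replicates 1 to 3. All female libraries lay above all male ones, with male replicate 3 the highest of its sex. It rose in female by a log2 fold change of 2.37 ± 0.24 (SE, edgeR adjusted p = 0.000102). Wnt5a (chromosome 14, 28504750 to 28527448) had 7.13, 7.07 and 6.66 RPKM in female and 10.7, 9.95 and 7.16 in male libraries. The sexes did not overlap, but male replicate 3 came close to the female values, and the gene was not called (-0.41 ± 0.15, edgeR adjusted p = 0.0933). Without male replicate 3 the log2 fold change of Wnt5a was -0.57 and its edgeR adjusted p 7.24e-05. The antisense gene Gm2670 shares 358 exon bases with Wnt5a and had 9 to 21 counts per library. Whether reads were assigned by strand is not known.

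As a share of the summed RPKM of the 19 ligand genes, Wnt5b took 26.7, 28.1 and 26.7% in female and 3.48, 3.73 and 7.30% in male libraries. Wnt5a took 58.8 ± 2.85% (SD, n = 3) in female and 68.4 ± 5.27% in male libraries, the largest share in each library. Summed over the family, the level was 11.8 ± 0.308 RPKM in female and 13.5 ± 1.74 in male libraries, and these ranges overlapped. The overlap came from male replicate 3, at 11.45 RPKM. Male replicates 1 and 2 stood at 14.65 and 14.25, above the 11.52 to 12.13 RPKM of the female libraries. The message of the 2 sexes thus differed in make-up, while the overlap of the sums rested on that 1 male library.

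The other called ligands were low and higher in male libraries. Of these, Wnt16 and Wnt10b passed the filter through the male libraries alone, which fixed their direction. Wnt16 was at 0.0314, 0.0645 and 0.0294 RPKM in female and 0.688, 0.769 and 0.535 in male libraries, from 11 counts in female and 179 in male. It fell by 3.99 ± 0.46 on the log2 scale in female (adjusted p from edgeR = 0.000227), with no overlap. Wnt2b, a ligand that can signal through beta-catenin, was at 0.206, 0.214 and 0.295 RPKM in female and 1.06, 1.21 and 0.379 in male libraries. Its male values spread widely with replicate 3 lowest, yet all lay above the female ones (-1.88 ± 0.45, edgeR adjusted p = 0.0159). The call of Wnt2b was lost without female replicate 1, female replicate 2 or male replicate 2 (edgeR adjusted p = 0.0635, 0.0651 and 0.083). Wnt10b, another beta-catenin pathway ligand, had 2, 0 and 8 counts in female and 14, 35 and 22 in male libraries. Its log2 fold change was -2.87 ± 0.81 (edgeR adjusted p = 0.0353), and -2.62, -2.38 and -2.61 (edgeR adjusted p = 0.133, 0.0939 and 0.153) without female replicate 1, female replicate 2 or male replicate 2. Without female replicate 3 it was -4.39 (edgeR adjusted p = 0.0236). Wnt9a (0.944 ± 0.248 RPKM in female, 0.848 ± 0.257 in male) and Wnt11 (0.0521 ± 0.0720 and 0.133 ± 0.0672) overlapped between the sexes and were not called (0.16 ± 0.32 and -1.22 ± 0.94).

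Untested ligands included the classical beta-catenin ligands. Wnt3, Wnt3a, Wnt7a and Wnt8a had 0 counts in all 6 libraries. Wnt1 had 3 counts in all and Wnt8b 2, all in female replicate 2. Wnt6 had 1, 2 and 3 counts in female and 5, 10 and 24 in male libraries, so that the sexes did not overlap. Wnt9b had 1 count over the female and 22 over the male libraries (ratio 22.8, counting interval 3.68 to 941). That interval rests on summed counts and leaves out variation between libraries. With the filter dropped, neither Wnt6 nor Wnt9b was called (edgeR adjusted p = 0.0614 and 0.0925). Wnt4 had 8 to 21, Wnt2 0 to 7, Wnt7b 0 to 8 and Wnt10a 0 to 6 counts per library, with overlapping sexes. At these depths a sex difference was not detectable for most of them.

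Several Wnt genes lie beside each other, in 4 neighbouring pairs. Wnt10b and Wnt1, on opposite strands of chromosome 15, are separated by 11.7 kb, and Wnt10b alone of them had counts in male libraries. Wnt9b and Wnt3, 24.3 kb apart on chromosome 11, had 22 and 0 counts in male libraries. Wnt6 and Wnt10a lie 6.19 kb apart on chromosome 1 on the same strand and had 39 and 8 male counts. Wnt3a and Wnt9a, 16.2 kb apart on chromosome 11, had 0 and 168 male counts and 0 and 200 female counts.

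Of the Frizzled receptor genes, 3 of the 9 tested were called. Their summed level was 123 ± 5.41 RPKM in female and 122 ± 6.26 in male libraries. Fzd1, Fzd2 and Fzd7 were the most abundant, at 53.2 ± 4.04, 29.8 ± 1.29 and 18.3 ± 0.475 RPKM in female and 60.9 ± 3.89, 27.7 ± 3.94 and 16.6 ± 1.48 in male libraries. None of these was called (log2 fold changes -0.19 ± 0.11, 0.11 ± 0.12 and 0.13 ± 0.11). Fzd1 was lower in every female library than in every male one, and without male replicate 3 it passed the test (-0.25, edgeR adjusted p = 0.0424). Fzd8 (8.09 ± 0.340 and 7.66 ± 1.33 RPKM in female and male), Fzd3 (0.476 ± 0.101 and 0.378 ± 0.144) and Fzd9 (0.293 ± 0.108 and 0.449 ± 0.366) overlapped and were not called. The sign of the Fzd8 difference turned without male replicate 3, from 0.08 to -0.04. Fzd10 had 0 counts throughout.

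Fzd4, the receptor of the ligand Norrin in retinal vessels as well as of Wnts, was at 7.99, 7.31 and 7.09 RPKM in female and 3.20, 2.79 and 1.68 in male libraries. Every female library lay well above the highest male value. It rose by 1.54 ± 0.21 (edgeR adjusted p = 0.000639), and its share of Frizzled RPKM was 6.08 ± 0.290% in female and 2.08 ± 0.605% in male libraries. Fzd5 was at 4.54, 3.01 and 4.13 RPKM in female and 2.44, 2.60 and 2.08 in male libraries. Female replicate 2 came near the male values, and the rise of 0.71 ± 0.18 (edgeR adjusted p = 0.0199) was not called without female replicate 1, female replicate 3 or male replicate 2 (edgeR adjusted p = 0.102, 0.0934 and 0.0521). Fzd6, a receptor known from planar polarity of hair, went the other way, with 1.38, 1.21 and 0.940 RPKM in female and 3.89, 3.20 and 2.59 in male libraries. The sexes did not overlap, and it fell by 1.45 ± 0.21 on the log2 scale (adjusted p from edgeR = 0.00101). Within a library, the ratio of Fzd4 to Fzd6 per length was 5.77, 6.03 and 7.54 in female and 0.823, 0.871 and 0.648 in male, so the more abundant of the pair differed between the sexes. This ratio restates their opposite calls and is no separate result.

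**Figure D2:**
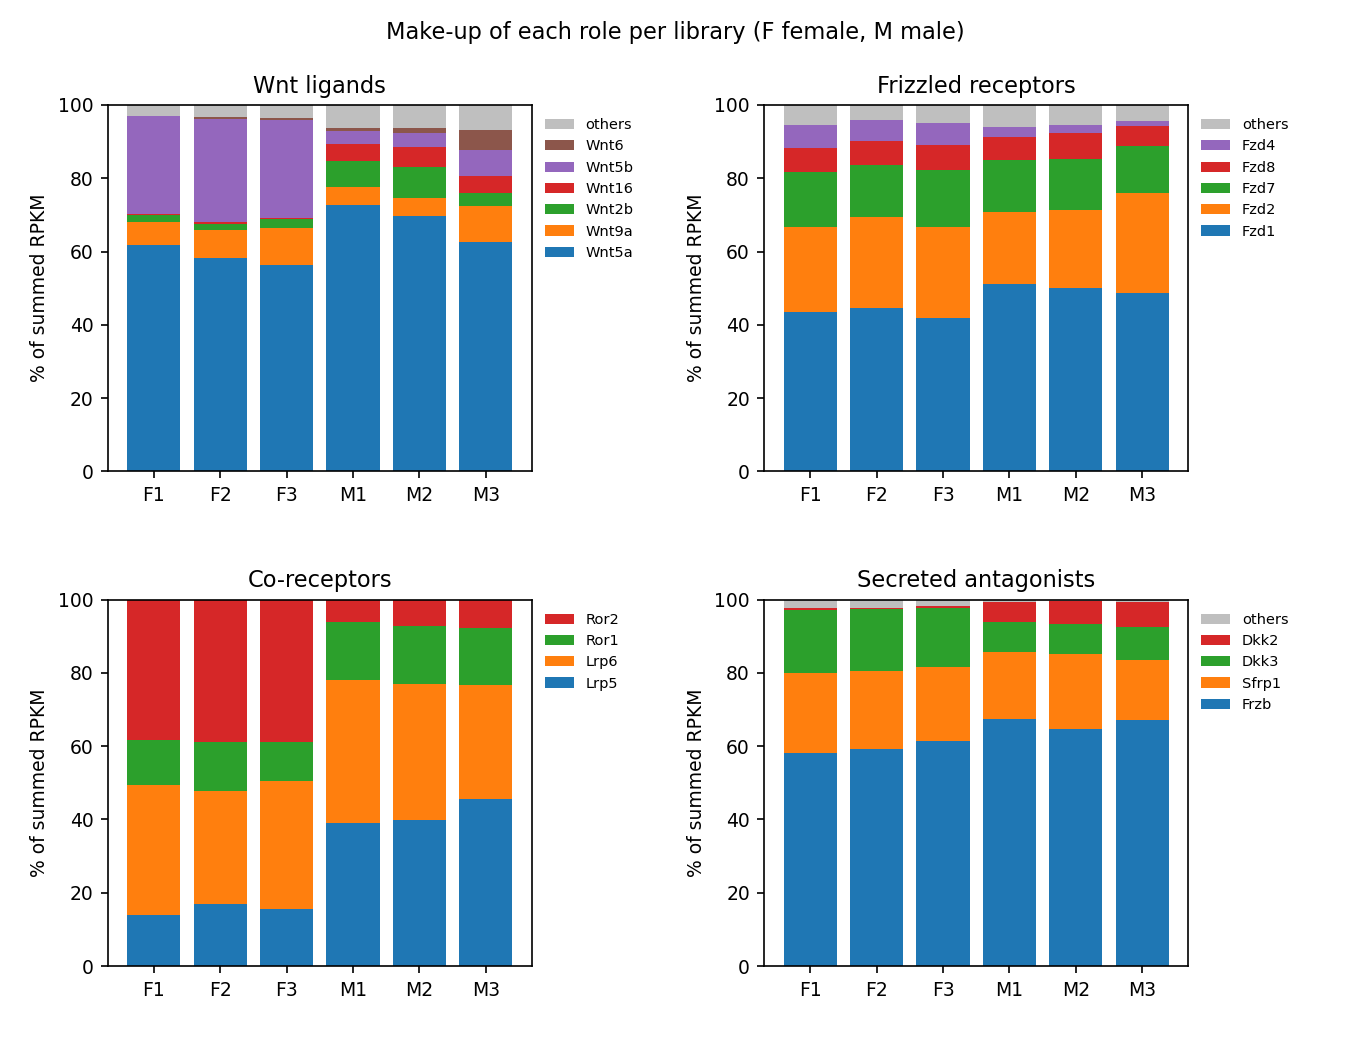
Share of the summed RPKM of each role taken by each gene, in percent, for the 3 female (F) and 3 male (M) libraries. Genes under 5% in every library are pooled as others. Ror2 takes 38.4 to 38.9% of the co-receptor sum in female and 6.24 to 7.67% in male libraries, and Wnt5b 26.7 to 28.1% of the ligand sum in female libraries.

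The co-receptor genes exchanged places. Ror2 (chromosome 13, 53109312 to 53286124), a receptor tyrosine kinase for Wnt5a, was at 12.8, 12.4 and 11.3 RPKM in female and 2.57, 2.86 and 2.33 in male libraries. The groups lay far apart with little spread, and it rose by 2.23 ± 0.13 (edgeR adjusted p = 3.23e-06). Its relative Ror1 was at 4.06, 4.22 and 3.17 RPKM in female and 6.46, 6.20 and 4.79 in male libraries. Ror1 was lower in each female library than in any male one (-0.61 ± 0.16, edgeR adjusted p = 0.029). That call ended without female replicate 1, 2 or 3 (edgeR adjusted p = 0.0701, 0.0587 and 0.124) and without male replicate 1 or 2 (edgeR adjusted p = 0.0752 and 0.117). The ratio of Ror2 to Ror1 per length within a library was 3.16, 2.93 and 3.58 in female and 0.397, 0.462 and 0.487 in male.

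Lrp5 (chromosome 19, 3584828 to 3686564), a Wnt co-receptor with a known part in retinal vessel growth, was at 4.68, 5.38 and 4.56 RPKM in female and 16.0, 15.6 and 13.8 in male libraries. Male libraries held about 3 times the female level without overlap, and Lrp5 fell by 1.64 ± 0.12 on the log2 scale in female (adjusted p from edgeR = 1.01e-05). Lrp6, its close relative, was at 11.8, 9.85 and 10.2 RPKM in female and 16.1, 14.6 and 9.46 in male libraries. Male replicate 3 fell below the female values, and Lrp6 was not called (-0.34 ± 0.18, edgeR adjusted p = 0.266), but it was without that library (-0.53, edgeR adjusted p = 0.000159). The share of Lrp5 in the summed co-receptor RPKM was 15.5 ± 1.43% in female and 41.4 ± 3.54% in male libraries.

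R-spondins and their receptors were lower in female in each of the 4 genes called, though the filter fixed that direction for Rspo2. Rspo3 (chromosome 10, 29452416 to 29535867), an R-spondin known to act in endothelial cells, was at 0.842, 0.546 and 0.802 RPKM in female and 4.35, 4.24 and 4.44 in male libraries. The male values were nearly equal and all above the female ones, and Rspo3 fell by 2.56 ± 0.20 on the log2 scale (adjusted p from edgeR = 1.93e-05). Rspo2 had 3, 0 and 5 counts in female and 20, 12 and 20 in male libraries. It passed the filter through the male libraries alone, so its direction and lack of overlap are no separate evidence. Its log2 fold change of -2.76 ± 0.78 was called (edgeR adjusted p = 0.0352) and was lost without female replicate 1, 2 or 3 (-2.85, -2.28 and -3.46, edgeR adjusted p = 0.117, 0.0999 and 0.0652) and without male replicate 1 or 2 (-2.69 and -3.04, edgeR adjusted p = 0.0965 and 0.0676). Rspo1 had 32, 16 and 15 counts in female and 3, 18 and 9 in male libraries, overlapped and was not called (1.03 ± 0.63, edgeR adjusted p = 0.324). Rspo4 had 4 counts over the female and 19 over the male libraries and was not tested.

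Lgr6 (chromosome 1, 134983301 to 135105276) showed the largest fold change of the 32 genes tested. It was at 0.107, 0.213 and 0.137 RPKM in female and 3.601, 4.265 and 3.529 in male libraries, from 64 counts in female and 1597 in male. The ratio of mean levels was 24.9, and the log2 fold change -4.66 ± 0.24 (edgeR adjusted p = 1.55e-06). Lgr4, a broadly expressed R-spondin receptor, was at 2.60, 2.91 and 2.10 RPKM in female and 6.89, 6.62 and 5.15 in male libraries. It fell by 1.30 ± 0.17 on the log2 scale with no overlap (edgeR adjusted p = 0.000495). Lgr5, the intestinal stem cell marker, had 0 counts in all 6 libraries. Summed, the R-spondin receptors came to 2.69 ± 0.443 RPKM in female and 10.02 ± 1.17 RPKM in male, and the R-spondins to 1.30 ± 0.341 and 4.90 ± 0.227.

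The ubiquitin ligase gene Znrf3, whose product removes Frizzleds and is countered by R-spondins, was at 0.914, 0.748 and 0.530 RPKM in female and 1.33, 1.48 and 1.12 in male libraries. The sexes did not overlap (-0.85 ± 0.23, edgeR adjusted p = 0.0272). The call of Znrf3 ended without female replicate 2 or 3 (edgeR adjusted p = 0.0889 and 0.093) and without male replicate 1 or 2 (edgeR adjusted p = 0.0545 and 0.119). Its relative Rnf43 had 0 counts in female and 6 in male libraries. Axin1, a scaffold of the complex that degrades beta-catenin, was at 12.2 ± 0.443 RPKM in female and 13.0 ± 0.855 in male libraries and was not called (-0.09 ± 0.11). Axin2, a widely used target gene of the beta-catenin branch, had 11 counts over the female and 7 over the male libraries and was not tested.

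Genes of secreted antagonists were far more abundant than those of the ligands, summing to 473 ± 13.9 RPKM in female and 281 ± 12.9 in male libraries. Of the antagonists that bind Wnts themselves, all 3 tested rose in female. Frzb (also called Sfrp3; chromosome 2, 80411970 to 80447625) was the most abundant of the 54 genes in every library, at 267, 286 and 294 RPKM in female and 199, 176 and 184 in male. The sexes did not overlap (0.60 ± 0.11, edgeR adjusted p = 0.00324). Sfrp1 was at 99.0, 103 and 97.9 RPKM in female and 54.3, 55.3 and 45.1 in male libraries. Every female value exceeded every male value, by nearly 2-fold on average (0.96 ± 0.11, edgeR adjusted p = 0.000272). Sfrp4 was at 10.2, 10.8 and 8.49 RPKM in female and 1.60, 1.06 and 1.72 in male libraries. It showed the largest rise of the 32 genes tested, at 2.76 ± 0.20 (edgeR adjusted p = 1.18e-05). Sfrp2 (29 counts in female, 25 in male), Sfrp5 (0 and 1) and Wif1 (7 and 6) were not tested.

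The Dickkopf genes moved in opposite directions. Dkk2 (chromosome 3, 132085292 to 132180304), which binds Lrp5 and Lrp6, was at 2.05, 2.00 and 2.62 RPKM in female and 16.1, 16.5 and 18.8 in male libraries. All male values lay far above the highest female one, and Dkk2 fell by 2.94 ± 0.15 on the log2 scale (adjusted p from edgeR = 1.43e-06). Dkk3 (chromosome 7, 112116017 to 112159057), the divergent member of the family, was at 79.3, 80.8 and 76.4 RPKM in female and 24.5, 22.7 and 24.4 in male libraries. It rose by 1.72 ± 0.10 with no overlap (edgeR adjusted p = 2.89e-06). Within a library the ratio of Dkk3 to Dkk2 per length was 38.8, 40.4 and 29.2 in female and 1.52, 1.37 and 1.30 in male. Dkk1 had 2 counts, both in male replicate 2, and Dkk4 had 0 throughout.

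**Figure D3:**
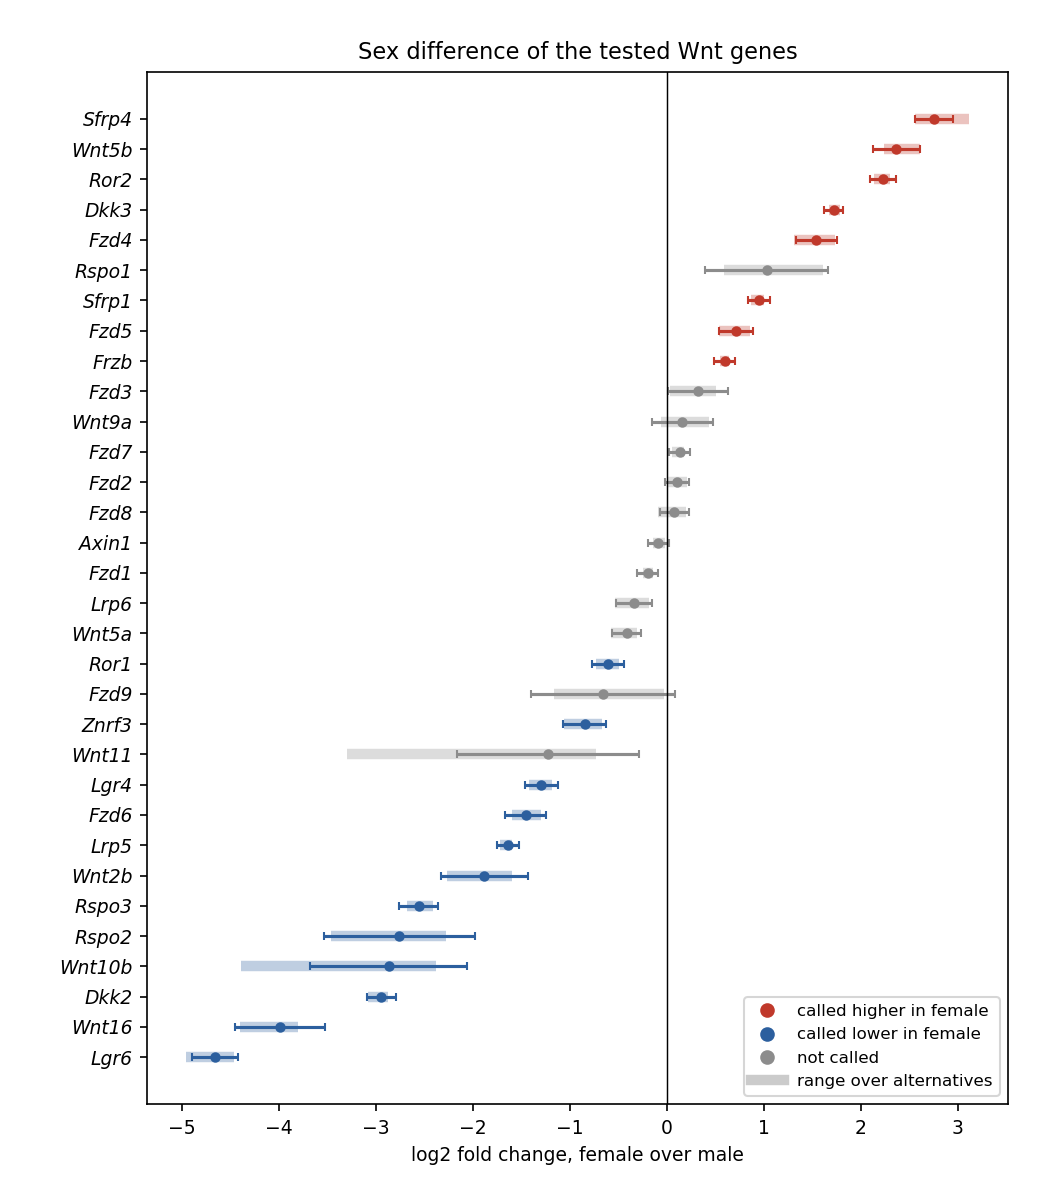
Log2 fold change of female over male for the 32 tested Wnt genes, with the standard error from edgeR as whiskers and the range over the alternative settings as a pale bar. Red and blue mark genes called higher and lower in female and grey those not called. Lgr6 lies lowest at -4.66 and Sfrp4 highest at 2.76.

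The other genes of the pathway were counted from a list of 94, of which 82 were tested. In that list 9 genes rose in female and 19 fell, or 34.15% called in either direction against 18.3% of all tested genes, and the median log2 fold change was -0.17. The list was chosen with earlier results of these data known, so that its share of calls is no independent measure. Without male replicate 3, 35 were called lower, among them all 19. Of all tested genes, 2543 of 15462 were then called lower, against 1287 of 14932 with all libraries. The share of all tested genes called in either direction went from 18.3 to 32.7%. Notum, Dact2, Camk2b and Celsr3 reached the filter's level of 0.471 CPM in all male libraries but not in all female ones. The male libraries alone were enough to pass them, which favours genes higher in male. Celsr3 was not called (-1.55 ± 0.52, edgeR adjusted p = 0.0726). By class, 2 cytoplasmic genes rose and 3 fell of 24, 2 nuclear genes rose and 2 fell of 15, and 5 of 12 other surface genes fell. Of the 16 tested genes of planar polarity and other beta-catenin independent signalling 1 rose and 4 fell, and of 17 tested target genes 5 rose and 6 fell.

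Notum (chromosome 11, 120653788 to 120661175), whose product inactivates Wnts by removing their lipid, changed more than any of the Wnt family genes. It was at 0.0948, 0.187 and 0.355 RPKM in female and 34.7, 39.4 and 49.0 in male libraries. From 33 counts in female and 5949 in male, its log2 fold change was -7.55 ± 0.31 (edgeR adjusted p = 5.56e-07), and -8.21 without female replicate 3. Its antisense neighbour Notumos, which shares 708 exon bases with it, had 0 counts in female and 50, 75 and 26 in male libraries. Wls, the carrier needed for Wnt secretion, was at 53.5 ± 0.962 RPKM in female and 40.9 ± 1.22 in male libraries. It rose by 0.39 ± 0.10 (edgeR adjusted p = 0.0211), which was lost without female replicate 1, 2 or 3 (edgeR adjusted p = 0.0914, 0.115 and 0.108) or male replicate 2 (edgeR adjusted p = 0.091). Porcn, which adds the lipid, was not called (-0.14 ± 0.25).

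At the cell surface, the Wnt inhibitor gene Apcdd1 fell by 2.45 ± 0.19 on the log2 scale (0.879 ± 0.127 RPKM in female, 4.83 ± 0.504 in male, edgeR adjusted p = 1.78e-05). Tpbg, a membrane inhibitor of the pathway that shares exon bases with an antisense gene of 42 to 113 counts, fell by 0.67 ± 0.12 on the log2 scale (adjusted p from edgeR = 0.00313), and Gpc4, the most abundant of the class, was not called (-0.17 ± 0.12). Lrp4 was at 3.63 ± 0.371 RPKM in female and 5.82 ± 1.30 in male libraries, Adgra2 at 45.4 ± 5.15 and 65.4 ± 11.1, and Gpc6 at 1.52 ± 0.467 and 3.70 ± 1.84. The sexes overlapped for Gpc6 and not for Lrp4 and Adgra2. Their log2 fold changes were -0.68 ± 0.17, -0.53 ± 0.15 and -1.28 ± 0.38, called at edgeR adjusted p of 0.0212, 0.0353 and 0.0463. Without female replicate 3 the adjusted p became 0.109, 0.165 and 0.185, and without male replicate 2, 0.101, 0.154 and 0.149. Without female replicate 2 the values of Lrp4, Adgra2 and Gpc6 were 0.0873, 0.132 and 0.133, without male replicate 1, 0.0532, 0.0729 and 0.123, and without female replicate 1, 0.0535 for Adgra2 and 0.0563 for Gpc6.

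In the cytoplasm, the Dishevelled inhibitor genes Nkd1 and Nkd2 differed in direction. Nkd2 fell from 2.58 ± 0.215 RPKM in male to 0.510 ± 0.0498 in female libraries (log2 fold change -2.34 ± 0.18, edgeR adjusted p = 1.78e-05), while Nkd1 rose from 1.11 ± 0.0795 to 2.13 ± 0.294 (0.94 ± 0.18, edgeR adjusted p = 0.00541). Dact2 fell by 2.86 ± 0.49 on the log2 scale (adjusted p from edgeR = 0.00263). Ctnnb1, which encodes beta-catenin and is the most abundant of the class, was at 144 ± 1.65 RPKM in female and 105 ± 12.4 in male libraries. Its rise of 0.46 ± 0.12 (edgeR adjusted p = 0.0223) was not called without female replicate 1, 2 or 3 (edgeR adjusted p = 0.1, 0.103 and 0.0985) or male replicate 2 (edgeR adjusted p = 0.067). Apc2 (-0.83 ± 0.20, edgeR adjusted p = 0.019) lost its call without female replicate 2, female replicate 3 or male replicate 2 (edgeR adjusted p = 0.071, 0.0878 and 0.0922).

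Of the nuclear genes, the TCF family members differed among themselves. Tcf7 rose by 1.19 ± 0.27 (1.76 ± 0.399 RPKM in female, 0.774 ± 0.117 in male; adjusted p from edgeR = 0.0128, and 0.0668 without female replicate 3). Tcf7l1 fell by 0.67 ± 0.13 on the log2 scale (adjusted p from edgeR = 0.0064), and Lef1 was not called (-0.84 ± 0.34, edgeR adjusted p = 0.136). The Groucho family corepressor genes Tle1 and Tle2 went in opposite directions, at 0.58 ± 0.12 and -0.89 ± 0.12 (edgeR adjusted p = 0.00684 and 0.000671). Ctbp1 had the highest level per length of the class.

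In beta-catenin independent signalling, Camk2b, of a calcium-dependent kinase, fell by 3.87 ± 0.34 and the formin gene Daam2 by 2.35 ± 0.23 on the log2 scale (adjusted p from edgeR = 3.91e-05 and 7.02e-05). Nfatc4, of the calcium-regulated NFAT factors and the most abundant of the class, rose by 0.77 ± 0.11 while Nfatc1 fell by 0.80 ± 0.14 (edgeR adjusted p = 0.000975 and 0.00231). Camk2d fell by 0.47 ± 0.13 (edgeR adjusted p = 0.0336), a call lost without female replicate 1, 2 or 3 (edgeR adjusted p = 0.0919, 0.164 and 0.0917) or male replicate 1 or 2 (edgeR adjusted p = 0.0813 and 0.12).

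Genes known as targets of the pathway in other tissues did not move in 1 direction. Of the target genes already described, Notum and Apcdd1 fell and Nkd1 and Tcf7 rose. The transcription factor gene Tbx3 rose from 3.04 ± 0.484 RPKM in male to 17.3 ± 1.44 in female libraries (a log2 rise of 2.51 ± 0.15, adjusted p from edgeR = 3.12e-06). The antisense gene Tbx3os1, which overlaps it, had 224 to 360 counts in female and 14 to 25 in male libraries. Bambi, a pseudoreceptor, rose by 1.19 ± 0.20 (edgeR adjusted p = 0.00233). Ctgf, which had the highest mean level of the class in male but not in female libraries, at 140 ± 15.6 RPKM in male and 61.5 ± 1.97 in female libraries, fell by 1.18 ± 0.11 on the log2 scale (adjusted p from edgeR = 6.92e-05). Sox9 fell by 0.64 ± 0.10 (edgeR adjusted p = 0.00183), and Myc was not called (-0.24 ± 0.11). Sp5, a direct target in many cell types, had 15, 9 and 9 counts in female and 0 in each male library but did not pass the filter, as did Sox17 with 5, 1 and 5 in female and 0 in male.

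**Figure D4:**
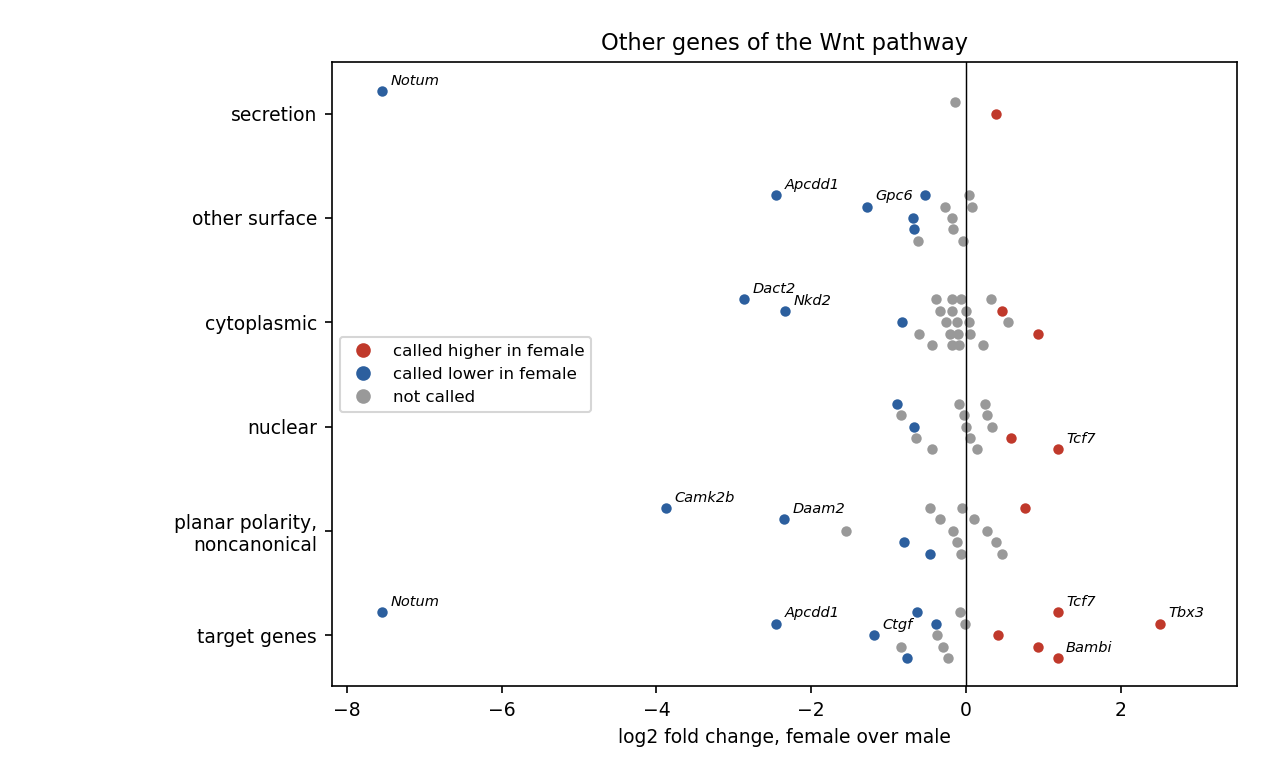
Log2 fold change of female over male for the tested genes of the Wnt pathway list outside the family described, by class. Red and blue points were called higher and lower in female by edgeR, grey points were not called, vertical offsets only separate points, and genes in more than 1 class are drawn in each. Notum lies at -7.55 and Tbx3 at 2.51.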

How the data were processed

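Poly-A RNA-seq libraries from 3 female and 3 male cultures were grouped by the sex in their labels. The authors deposited unnormalized read counts, whole numbers for each of 54532 genes in each library, with gene lengths in bases. HISAT2 2.0.5 and featureCounts 1.5 were used, per the submitters' processing notes. The sources used here do not name a genome build or say if counting was by strand. Coordinates are those of the deposited table, and 53 of the 54 genes described had the same ones in the GENCODE M21 annotation of GRCm38.

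The 54 genes were protein-coding rows whose symbol matched a fixed pattern of Wnt family names. They, the pathway list (94 genes) and the marker lists were chosen with earlier results of these data known. All 54 were described, in RPKM where CPM had been planned. From the pathway list, in each class the called genes (at most the 6 of smallest p) and the highest expressed gene were named. Porcn, Sp5, Sox17, Lef1, Myc and Celsr3 are named outside that rule, after their values were seen, as are the genes overlapping a described gene. The ratios of gene pairs within a library were not planned. Each pair given was called in opposite directions, so that its ratio restates those calls. Of the list entries, 2 (Ccn2 and Ccn4) were matched by a RefSeq synonym.

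All genes with enough counts were fitted together with edgeR 4.0.16 in R 4.3.3 (quasi-likelihood F test, robust dispersions, TMM, filterByExpr at a minimum count of 10), which left 14932 genes. The p-values were adjusted by Benjamini-Hochberg over all of these, and a gene was called under 0.05. Standard errors are the log2 fold change divided by the square root of F. RPKM values use TMM-scaled totals and the deposited lengths. As alternatives, each library was left out in turn, the replicate number entered as a block, scaling was by RLE or upper quartile, the filter was dropped or set at a mean of 50 counts, and the threshold was 0.01. DESeq2 1.42.0 and limma-voom with quality weights (limma 3.58.1) were also run. The fit was tested on simulated data. Promoter windows are RefSeq sequences of GRCm38.p6.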

Additional observations from a re-analysis of the deposited data

How the results depend on the processing

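Of the 20 calls among the Wnt family genes, 14 (7 higher, 7 lower) held under every alternative that tested them, and all 20 kept their direction. The 20 include Rspo2, Wnt10b and Wnt16, and the 7 lower include Wnt16. These passed the filter through the male libraries alone, which fixed their direction in the main fit. The 6 that lost the call under at least 1 left-out library were Fzd5, Ror1, Rspo2, Wnt10b, Wnt2b and Znrf3. With 1 library left out, 7 to 8 family genes were higher and 7 to 15 lower, with 7 lower without female replicate 2 or male replicate 2 and 15 without male replicate 3. At an adjusted p under 0.01, 7 family genes were lower and 5 genes of the pathway list higher. Limma-voom with quality weights called 35 pathway list genes lower, and leaving out a library gave 13 to 35 of them, the highest without male replicate 3. Over all tested genes, 18.3% were called in either direction, 38.6% with limma-voom, 32.7% without male replicate 3 and 12.1 to 16.7% without any other library. The cause of these changes was not tested. The log2 fold change of Fzd8 turned sign with limma-voom (-0.0851) and ranged from -0.0442 (without male replicate 3) to 0.1994 over left-out libraries, and that of Wnt9a from -0.0638 (without female replicate 3) to 0.4311, none of them called. The replicate numbers were not shown to pair the libraries, since the deviations of replicates 1, 2 and 3 correlated between the sexes at 0.206, -0.00405 and 0.152. Female replicates 1 and 3 had their highest correlation with the same-numbered male library, and replicate 2 did not. With the replicate number as a block, 8 family genes were higher and 12 lower, and 10 and 24 genes of the pathway list. Depth limits what can be said of the 22 untested family genes, which reached at most 1.365 CPM in any library.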
